A study of Homo sapiens with 2 samples.

Results

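The surrogate light chain and CD79 genes are a group of 6 genes, chosen by symbol from the 32738 genes of the count matrices: IGLL1, VPREB1, VPREB3, CD79A, CD79B and KB-208E9.1. They were measured in single cells of Nalm-6, an established human cell line from a B-cell precursor acute lymphoblastic leukemia engineered with a Tet-On construct that doxycycline switches on. One library was made from cells carrying the ETV6-RUNX1 construct, which the labels also call TEL-AML1, and the other from cells carrying luciferase (LUC control). Both received 500 ng/ml doxycycline for 24 h, so doxycycline and the Tet-On system were common to the 2 libraries and the construct differed between them. The labels do not say whether each line came from 1 clone. There was 1 library per construct: every difference below is between those libraries, has no replicate check and was not tested.

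A B-cell precursor that has rearranged its heavy chain but not yet its light chain displays that heavy chain with a surrogate light chain, and the complex is the pre-B cell receptor. The surrogate light chain is built of IGLL1, which resembles the constant part of a lambda light chain, and VPREB1, which resembles its variable part. CD79A and CD79B form the signalling pair that carries both the pre-B cell receptor and the later B cell receptor to the membrane and recruits kinases through motifs in their tails. VPREB3 is a relative of VPREB1 that, in mouse, was found in the endoplasmic reticulum with newly made immunoglobulin chains. KB-208E9.1 (ENSG00000272733) is annotated by its identifier in GENCODE release 29 as a long intergenic non-coding RNA, and lies next to IGLL1 on the same strand of chromosome 22. VPREB1 and VPREB3 are also on chromosome 22, CD79A is on chromosome 19 and CD79B on chromosome 17.

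The fusion protein keeps the DNA-binding domain of RUNX1, and the promoters of the members are shown so that the letters bound by RUNX factors can be seen beside the levels that follow. The promoters of 4 of the 6 members are in the RefSeq table (build GRCh38.p14), and for each the 250 bases before the start of the gene are printed 5′ to 3′ on the gene's strand. The other members are CD79B and KB-208E9.1. Capitals mark matches to the RUNX core TGTGGT on either strand, where the opposite strand reads ACCACA. The windows are chr22:23580291-23580540 on the minus strand for IGLL1, chr22:22244536-22244785 on the plus strand for VPREB1, chr22:23754426-23754675 on the minus strand for VPREB3 and chr19:41877029-41877278 on the plus strand for CD79A.
IGLL1: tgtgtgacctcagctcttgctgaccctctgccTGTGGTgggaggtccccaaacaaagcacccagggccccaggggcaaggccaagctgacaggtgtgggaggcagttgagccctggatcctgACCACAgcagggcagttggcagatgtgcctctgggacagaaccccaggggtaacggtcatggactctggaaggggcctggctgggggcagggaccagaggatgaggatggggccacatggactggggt
VPREB1: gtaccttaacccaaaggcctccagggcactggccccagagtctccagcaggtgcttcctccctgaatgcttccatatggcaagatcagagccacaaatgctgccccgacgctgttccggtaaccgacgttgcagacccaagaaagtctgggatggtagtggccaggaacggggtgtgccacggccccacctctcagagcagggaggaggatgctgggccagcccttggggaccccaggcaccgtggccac
VPREB3: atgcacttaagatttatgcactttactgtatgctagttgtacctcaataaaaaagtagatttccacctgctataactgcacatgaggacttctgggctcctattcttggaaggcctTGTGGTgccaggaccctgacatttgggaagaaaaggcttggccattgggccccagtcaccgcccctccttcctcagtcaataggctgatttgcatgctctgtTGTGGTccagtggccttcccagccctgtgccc
CD79A: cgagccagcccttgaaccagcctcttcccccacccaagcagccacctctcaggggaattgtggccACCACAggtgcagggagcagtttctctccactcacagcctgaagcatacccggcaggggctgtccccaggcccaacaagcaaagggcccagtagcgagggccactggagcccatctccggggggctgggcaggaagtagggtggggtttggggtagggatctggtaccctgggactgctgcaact

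IGLL1 had 2 matches, starting 218 and 128 bases before the gene, VPREB3 had 2, at 134 and 32 bases, CD79A had 1, at 185 bases, and VPREB1 had 0. Of all 35116 promoters of the same length in that table, 11.0% held the RUNX core and 0.971% held 2 or more matches. The E-box CAGGTG was present once in each of the 4 promoters, against 17.5% of all promoters, and in CD79A it overlaps the RUNX match. The EBF1 core CCCNNGGG was matched 4 times in IGLL1, at 2 places where overlapping matches start 1 base apart, and once in VPREB1 (17.1% of all promoters). The E-box CAGCTG was in none of the 4 (13.99%), the Ikaros core TGGGAA was matched at 2 places in VPREB3 (20.8%), and the ETS core GGAAGT once in CD79A (19.5%). These matches describe letters in these windows and not bound sites, and all motifs were searched on both strands.

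Cells were kept with at least 1000 detected genes and at most 10% of unique molecular identifiers (UMIs) from mitochondrially encoded genes. This left 2267 cells with ETV6-RUNX1 and 1870 in the control, with a median of 19219 UMIs per cell with ETV6-RUNX1 and 22535.5 in the control. Of the cell barcodes, 16 were present in both libraries, 7 of them among the kept cells of both. Of 10 B-cell precursor markers 9 were measured, with a summed level of 2584 CPM (UMIs scaled to a common library total) with ETV6-RUNX1 against 2442 CPM in the control, whereas summed markers of mature B and plasma cells, T and NK cells, myeloid, erythroid and stromal cells were each at most 7.51 CPM in either library. ETV6 was at 10.1 CPM with ETV6-RUNX1 against 6.95 CPM in the control and RUNX1 at 33.8 CPM with ETV6-RUNX1 against 34.0 CPM in the control, and the labels do not say whether reads of the construct count toward either gene.

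The chain genes of the surrogate light chain were lower with ETV6-RUNX1, and the CD79 pair was closer to the control. For each gene the UMIs of all kept cells were summed and expressed as CPM, and each log2 ratio of ETV6-RUNX1 over control is given with an exact 95% interval that covers counting error only. IGLL1 (ENSG00000128322) had 49472 UMIs or 1126 CPM with ETV6-RUNX1, against 79600 UMIs or 1861 CPM in the control. Its log2 ratio was -0.73 (-0.74 to -0.71), a level 1.65-fold lower, and it ranked 19 from the lowest ratio among the 5954 measured genes, those reaching 10 CPM in either library. VPREB1 (ENSG00000169575) had 31570 UMIs or 718 CPM with ETV6-RUNX1, against 45254 UMIs or 1058 CPM in the control, a log2 ratio of -0.56 (-0.58 to -0.54). That is 1.47-fold lower, just short of the 1.5-fold size used to count genes, and it was past that size in cells brought to equal depth (-0.59) and with the cell cycle phases given equal weight (-0.69). With other scalings of the library totals VPREB1 was farther short of that size, at -0.52.

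KB-208E9.1 had 1127 UMIs or 25.6 CPM with ETV6-RUNX1, against 2076 UMIs or 48.5 CPM in the control, a log2 ratio of -0.92 (-1.03 to -0.82). It is uncertain as a separate gene, since no source used here says how reads shared with its neighbour IGLL1 were counted. VPREB3 (ENSG00000128218) was at 357 CPM with ETV6-RUNX1 and 381 CPM in the control, a log2 ratio of -0.09 (-0.13 to -0.06). CD79A (ENSG00000105369) was at 135 CPM with ETV6-RUNX1 against 164 CPM in the control, with a log2 ratio of -0.28 (-0.34 to -0.23). CD79B (ENSG00000007312) was at 507 CPM with ETV6-RUNX1 and 498 CPM in the control, with a log2 ratio of 0.03 (-0.00 to 0.05) whose interval holds no difference, and its sign turned when phases had equal weight (-0.07).

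All 6 members passed 10 CPM in both libraries. With ETV6-RUNX1, 2 of the 6 (IGLL1 and KB-208E9.1) were at least 1.5-fold lower and 0 at least 1.5-fold higher, where 0.655% of the 5954 measured genes were that much lower and 0.185% that much higher. The members were chosen with earlier results of these data known, and reads of KB-208E9.1 may be shared with IGLL1. This count and those by phase therefore describe the members only. The median log2 ratio over measured genes was -0.04, with quartiles at -0.13 and 0.04. Over all kept cells there were 63.8 VPREB1 UMIs per 100 IGLL1 UMIs with ETV6-RUNX1 (62.9 to 64.7) and 56.9 in the control (56.2 to 57.5). In G1 cells, called as described with the phases, the intervals overlapped, at 91.6 with ETV6-RUNX1 (86.9 to 96.6) and 89.1 in the control (85.2 to 93.1), and within a library this proportion moved more between phases: in S it was 63.6 with ETV6-RUNX1 and 54.3 in the control. Likewise CD79A stood at 26.5 UMIs per 100 CD79B UMIs with ETV6-RUNX1 (25.8 to 27.3) and at 32.9 in the control (32.0 to 33.8). UMIs count captured poly-A ends and are not divided by gene length, so these proportions compare libraries and not amounts of protein or of one gene with another.

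The IGLL1 and VPREB1 distributions were shifted down with ETV6-RUNX1 from the low end to the 90th percentile, by a larger factor at the low end but not by more UMIs. To compare cells at one depth, each was thinned at random to 8700 UMIs, which left 2043 cells with ETV6-RUNX1 and 1786 in the control and dropped 224 shallower ETV6-RUNX1 cells and 84 shallower control cells. IGLL1 then had a median of 7 UMIs per cell with ETV6-RUNX1 and 15 in the control, and the 10th and 90th percentiles were 0 and 23 with ETV6-RUNX1 and 5 and 30 in the control. The ratio of the libraries' deciles climbed from 0.25 at the 20th percentile through 0.467 at the median to 0.767 at the 90th. The highest single cells were alike, with 67 UMIs with ETV6-RUNX1 and 57 in the control. Cells with 20 or more IGLL1 UMIs made up 15.1% with ETV6-RUNX1 and 31.0% in the control. VPREB1 had a median of 5 UMIs with ETV6-RUNX1 and 8 in the control, and its decile ratios were 0.2 at the 20th percentile, 0.625 at the median and 0.812 at the 90th.

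**Figure D1:**
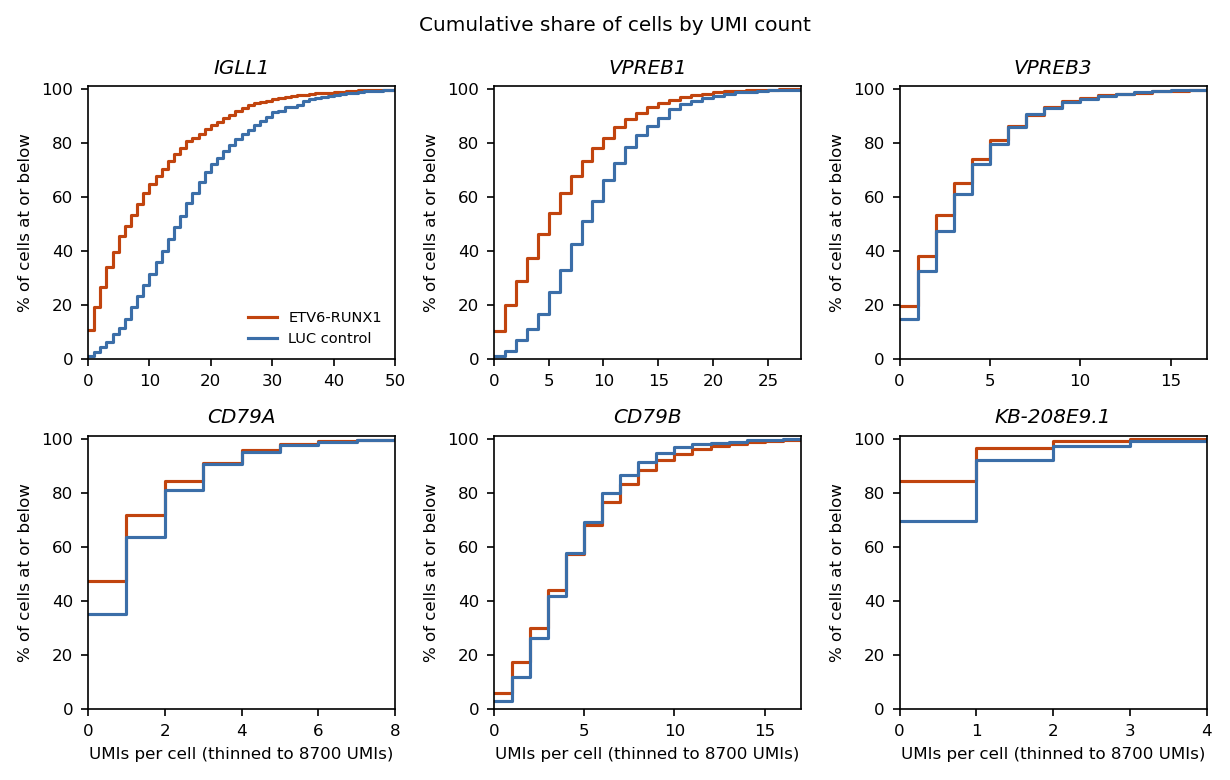
Share of cells (y axis, percent) with at most a given number of UMIs of each member (x axis, UMIs per cell thinned to 8700 UMIs), for ETV6-RUNX1 (2043 cells) and LUC control (1786 cells). For IGLL1 and VPREB1 the ETV6-RUNX1 curve starts at 10.7% and 10.6% of cells with no UMI and lies above the control curve, while for CD79B the curves nearly coincide.

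Cells without a UMI of a surrogate light chain gene were more frequent with ETV6-RUNX1. IGLL1 had no UMI in 219 of 2043 thinned cells with ETV6-RUNX1, or 10.7% (exact 95% interval 9.41 to 12.1), and in 20 of 1786 in the control, or 1.12% (0.685 to 1.72). If every cell had held the library mean of 9.57 UMIs, counting alone would have left 0.00701% of ETV6-RUNX1 cells without one. VPREB1 had no UMI in 216 cells with ETV6-RUNX1, 10.6% (9.27 to 12.0), and in 21 in the control, 1.18% (0.729 to 1.79). Before thinning, the shares without a UMI were 6.66% with ETV6-RUNX1 and 0.588% in the control for IGLL1, and 6.44% with ETV6-RUNX1 and 0.588% in the control for VPREB1. No cell type that lacks IGLL1 was present to gauge free RNA. Among barcodes with over 50% mitochondrial UMIs, which were not kept, 9.55% (5.45 to 15.3) of 157 with ETV6-RUNX1 and 12.2% (8.05 to 17.5) of 205 in the control had an IGLL1 UMI, at a median depth of 842 UMIs with ETV6-RUNX1 and 919 in the control. Without mitochondrial UMIs the median depth of these barcodes was 83 UMIs with ETV6-RUNX1 and 45 in the control.

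The other members also lacked a UMI in a larger share of ETV6-RUNX1 cells, by smaller factors. VPREB3 had no UMI in 19.7% of thinned cells with ETV6-RUNX1 and 14.9% in the control, and CD79B in 6.12% with ETV6-RUNX1 and 3.08% in the control. CD79A was not detected in 47.2% of cells with ETV6-RUNX1 and 35.2% in the control. At so low a count the mean over cells with a UMI says little: it was 2.16 with ETV6-RUNX1 and 2.15 in the control after thinning, and 3.89 with ETV6-RUNX1 and 4.46 in the control before it. Before thinning the libraries differed in depth, with a median of 19219 UMIs per cell with ETV6-RUNX1 and 22535.5 in the control. For IGLL1, thinned cells with a UMI held 10.7 on average with ETV6-RUNX1 and 16.4 in the control. KB-208E9.1 had no UMI in 84.4% of cells with ETV6-RUNX1 and 69.4% in the control.

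Relative to their mean, the coding members spread more between cells with ETV6-RUNX1. The SD itself was 9.57 UMIs with ETV6-RUNX1 and 9.89 in the control for IGLL1, and 1.56 and 1.57 for CD79A. For the other coding members the SD was higher with ETV6-RUNX1 than in the control: 5.12 against 5.05 for VPREB1, 3.23 against 3.12 for VPREB3 and 3.32 against 2.87 for CD79B. The variance of thinned UMIs over their mean (the Fano factor, 1 for pure counting error) was 9.58 with ETV6-RUNX1 and 6.03 in the control for IGLL1, where the median over 1669 genes with a mean of at least 0.5 thinned UMIs per cell in both libraries was 1.11 with ETV6-RUNX1 and 1.09 in the control. For VPREB1 the Fano factor was 4.34 with ETV6-RUNX1 and 2.81 in the control. CD79B, whose mean was 4.55 UMIs with ETV6-RUNX1 and 4.48 in the control, still had a Fano factor of 2.43 with ETV6-RUNX1 and 1.85 in the control. Spread beyond counting error relative to the squared mean put IGLL1 at rank 21 of the 1669 genes with ETV6-RUNX1 and 92 in the control. With ETV6-RUNX1 the same rank was 47 for VPREB1, 29 for VPREB3, 15 for CD79A and 121 for CD79B, and in the control it was 175, 38, 41 and 194 for these genes.

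IGLL1 followed the cell cycle in both libraries, and its distance from the control was larger in G1 and S phase than in G2/M. Phases were called from lists of S and G2/M genes on thinned cells, scored together, which gave 290 G1, 477 S and 1276 G2/M cells with ETV6-RUNX1 and 201, 454 and 1131 in the control. An alternative added after seeing the data scored each library by itself. It gave 224 G1, 877 S and 942 G2/M cells with ETV6-RUNX1 and 146, 607 and 1033 in the control. Phase shares thus depended on the scoring, and the joint calls are used below unless another is named. IGLL1 was at 584, 825 and 1321 CPM in G1, S and G2/M with ETV6-RUNX1 and at 1138, 1688 and 2008 CPM in the control. Its highest phase level was 2.26-fold over its lowest with ETV6-RUNX1 and 1.76-fold in the control. The log2 ratios between libraries were -0.96 (-1.03 to -0.89) in G1, -1.03 (-1.07 to -0.99) in S and -0.60 (-0.62 to -0.59) in G2/M. VPREB1 was at 536, 525 and 818 CPM with ETV6-RUNX1 and at 1013, 917 and 1110 CPM in the control, with log2 ratios of -0.92, -0.81 and -0.44. The differences between phases were not tested, and median depth differed as well, from 16096.5 UMIs per cell in G1 to 21487 in G2/M with ETV6-RUNX1 and from 17537 to 24753 in the control.

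**Figure D2:**
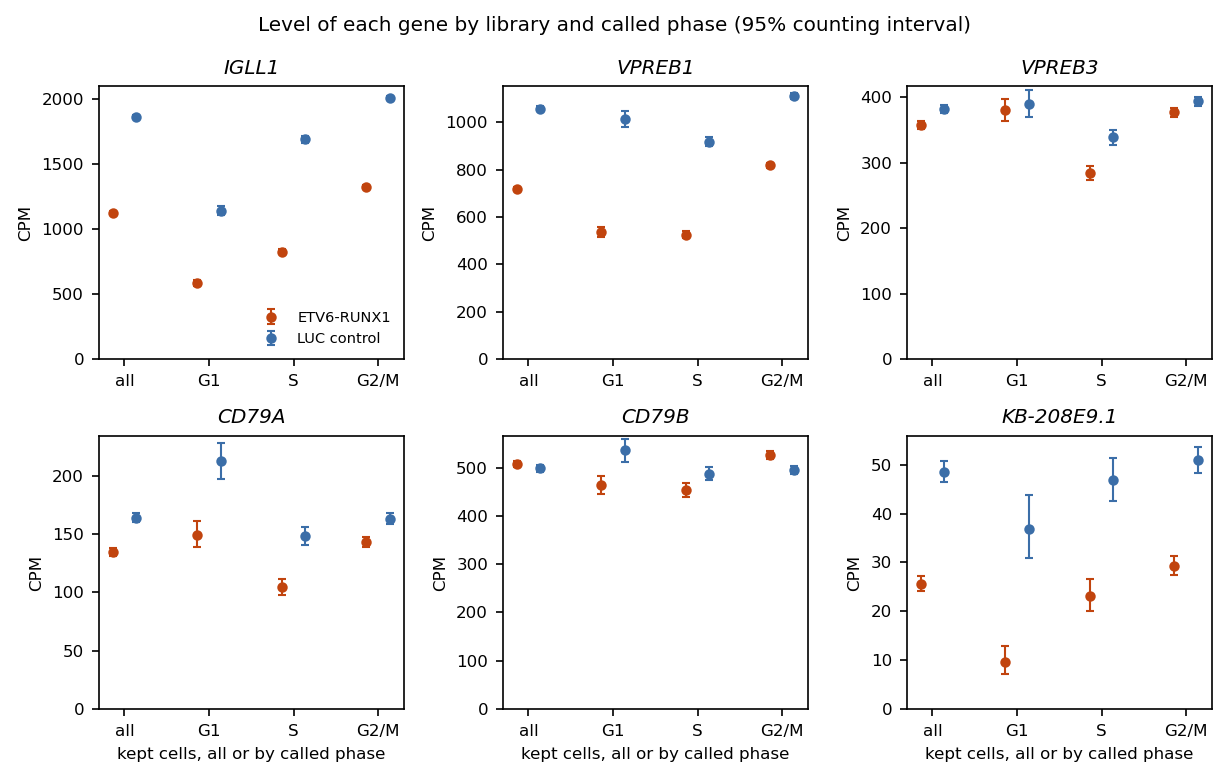
Level of each member (y axis, CPM from summed UMIs) in cells called G1, S and G2/M (x axis), with ETV6-RUNX1 and LUC control side by side and bars for the exact 95% counting interval. IGLL1 climbs to 1321 CPM in G2/M with ETV6-RUNX1 and 2008 CPM in the control, and CD79B stays between 454 and 535 CPM throughout.

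In G1, 3 of the 6 members (IGLL1, VPREB1 and KB-208E9.1) were at least 1.5-fold lower with ETV6-RUNX1, where 3.67% of the 5911 genes measured in G1 were, and 0 were that much higher, where 2.17% of genes were. The same 3 members were that much lower in S phase, where 1.72% of 5973 genes were, and IGLL1 and KB-208E9.1 were in G2/M, where 0.570% of 5969 genes were. With phases called within each library, an alternative added after seeing the data, IGLL1 was at -0.47 in G2/M (-0.49 to -0.45) and no longer 1.5-fold lower there. In S and G2/M 0 members were 1.5-fold higher, where 0.486% of genes were in S and 0.201% in G2/M. KB-208E9.1 had 48 UMIs with ETV6-RUNX1 and 135 in the control in G1, where it passed 10 CPM in the control alone (9.73 CPM with ETV6-RUNX1 against 36.9 CPM in the control), so its part in the G1 count follows from where it was high. Its log2 ratios were -1.92, -1.02 and -0.80 in G1, S and G2/M. CD79A was lowest in S phase in both libraries, at 104 CPM with ETV6-RUNX1 and 148 CPM in the control, and highest in G1, at 150 CPM with ETV6-RUNX1 and 212 CPM in the control. Its log2 ratios were -0.50, -0.51 and -0.19. VPREB3 had log2 ratios of -0.03, -0.25 and -0.06. CD79B was lower with ETV6-RUNX1 in G1 (-0.21, -0.30 to -0.12) and higher in G2/M (0.09, 0.05 to 0.12).

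The same was seen along the scores that underlie the phase calls, with edges of 5 equal classes of cells taken over both libraries. From the lowest to the highest class of the G2/M score, the log2 ratio of IGLL1 was -1.03, -0.97, -0.95, -0.78 and -0.37, and that of VPREB1 was -0.87, -0.68, -0.68, -0.55 and -0.30. CD79B ran from -0.17 to 0.30 over the same classes. Along the S score the order was the opposite for IGLL1, at -0.50, -0.65, -0.70, -0.86 and -1.05, so the cells with the strongest S-phase program stood farthest from their control counterparts. CD79A stayed between -0.31 and -0.15 over the 4 lower classes of the S score and was at -0.86 in the highest.

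**Figure D3:**
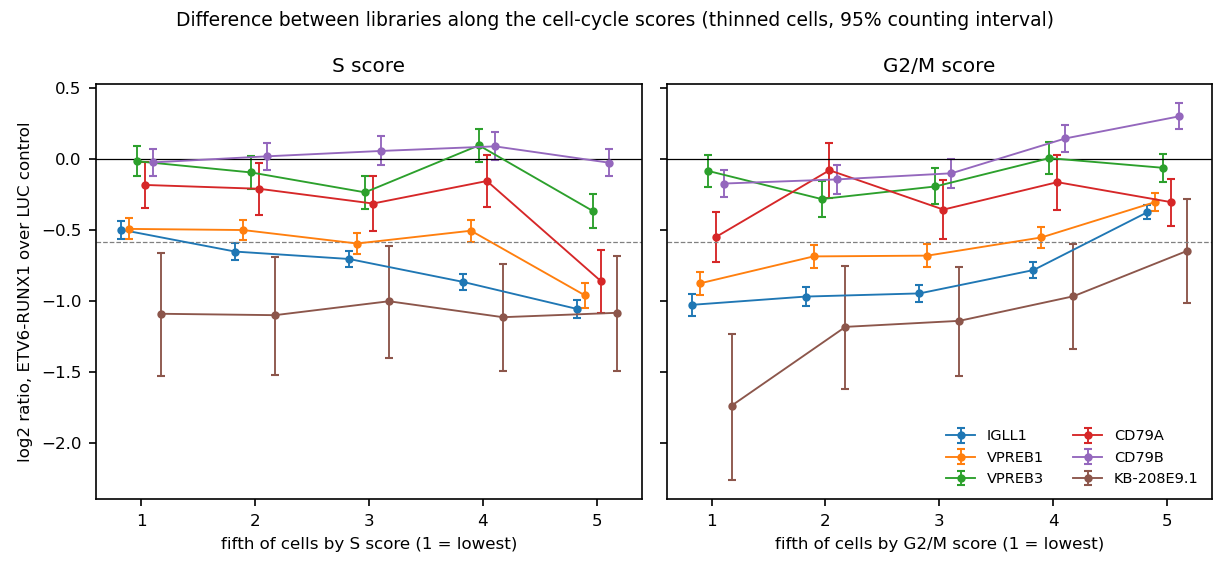
Log2 ratio of ETV6-RUNX1 over LUC control (y axis) from mean thinned UMIs per cell in 5 equal classes of the S score and of the G2/M score (x axis, low to high), with bars for the exact 95% counting interval. IGLL1 runs from -1.03 to -0.37 along the G2/M score and from -0.50 to -1.05 along the S score.

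IGLL1 and VPREB1 varied together across cells, more closely with ETV6-RUNX1. Pearson's r of log(1 + UMIs) over thinned cells of a library, which share a culture, an induction, a library preparation and a depth, was 0.46 with ETV6-RUNX1 (2043 cells) and 0.17 in the control (1786 cells). In G1, S and G2/M it was 0.37, 0.40 and 0.47 with ETV6-RUNX1 and 0.26, 0.09 and 0.15 in the control. Among 1391946 pairs of the 1669 genes, 71 had a higher r than IGLL1 and VPREB1 with ETV6-RUNX1 and 4126 in the control, and the 99th percentile of all pairs was 0.13 with ETV6-RUNX1 and 0.11 in the control. VPREB1 with VPREB3 gave an r of 0.35 with ETV6-RUNX1 and 0.27 in the control, and VPREB3 with CD79A gave 0.33 with ETV6-RUNX1 and 0.30 in the control. IGLL1 with CD79B gave 0.17 with ETV6-RUNX1 and -0.08 in the control. CD79A and CD79B, whose proteins pair, had an r of 0.04 with ETV6-RUNX1 and 0.11 in the control. These values are descriptions, and a difference in r between libraries was not tested.

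Cells without an IGLL1 UMI were also poorer in VPREB1. Neither gene had a UMI in 65 of 2043 cells with ETV6-RUNX1 (3.18%), and in 0 of 1786 in the control. If a count of 0 is taken to allow up to 3 cells, that is a share of up to 0.168%. VPREB1 was missing from 29.7% (23.7 to 36.2) of ETV6-RUNX1 cells without an IGLL1 UMI and from 8.28% (7.05 to 9.64) of those with one. In the control only 20 cells lacked IGLL1 and 21 lacked VPREB1, so few cells could lack both. There VPREB1 was missing from 0% (0 to 16.8) of cells without an IGLL1 UMI and from 1.19% (0.738 to 1.81) of those with one. With cells sorted by their IGLL1 UMIs, mean VPREB1 climbed from 2.94 UMIs in cells with none to 10.4 in cells with 21 or more with ETV6-RUNX1, and from 5.60 to 10.0 in the control. At the top class the libraries thus held similar VPREB1, while at 1 to 2 IGLL1 UMIs the means were 3.77 UMIs in 330 cells with ETV6-RUNX1 and 6.92 UMIs in 63 control cells. Phase moved with these classes: G2/M cells made up 44.7% of cells without IGLL1 and 86.6% of the top class with ETV6-RUNX1, and 35.0% and 76.1% of the same classes in the control. CD79B averaged 4.02 UMIs in cells without IGLL1 and 5.58 in the top class with ETV6-RUNX1, whereas in the control the order was the reverse, at 5.65 in the 20 cells without IGLL1 and 4.31 in the top class.

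KB-208E9.1 was seen with IGLL1 in the same cells. Of 319 ETV6-RUNX1 cells with a KB-208E9.1 UMI, 0 lacked IGLL1, which allows up to 1.15%, and of 546 such control cells 0 lacked it, which allows up to 0.673%. Over all thinned cells, 10.7% with ETV6-RUNX1 and 1.12% in the control lacked IGLL1. VPREB1 was missing from 9 of the 319 ETV6-RUNX1 cells and from 1 of the 546 control cells. The r with KB-208E9.1 was 0.28 for IGLL1 and 0.20 for VPREB1 with ETV6-RUNX1, and 0.15 for both in the control. There were 2.28 KB-208E9.1 UMIs per 100 IGLL1 UMIs with ETV6-RUNX1 (2.15 to 2.42) and 2.61 in the control (2.496 to 2.724). In G1 the proportion was 1.66 with ETV6-RUNX1 (1.22 to 2.21) and 3.25 in the control (2.71 to 3.85), in S it was 2.81 with ETV6-RUNX1 (2.44 to 3.22) and 2.77 in the control (2.52 to 3.05), and in G2/M 2.22 with ETV6-RUNX1 (2.07 to 2.38) and 2.54 in the control (2.41 to 2.67). Of the 5 genes on each side of IGLL1, VPREB1 and VPREB3 on chromosome 22, 5 genes that are not members were measured, and 0 of them reached 1.5-fold, with log2 ratios from -0.11 (SMARCB1) to 0.25 (YPEL1). Over the chromosome, 3 of 150 measured genes were at least 1.5-fold lower, IGLL1 and KB-208E9.1 among them, and 0 higher. Over all measured genes 0.655% were that much lower and 0.185% higher, so 0 of 5 neighbours lies near that share. Among the nearest measured neighbours of CD79A, ARHGEF1 had a log2 ratio of -0.28 and RPS19 of 0.08, and the 1 measured neighbour of CD79B, ICAM2, was at -0.39. IGLL5, a relative of IGLL1 whose reads may be hard to tell from it, was at 22.8 CPM with ETV6-RUNX1 against 33.7 CPM in the control (-0.56); it was singled out after its values were seen.

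Among the 1669 genes, those most like IGLL1 across cells were ranked by the mean of the within-library r. HMGB1, a chromatin protein, came first at 0.34, followed by the tubulin TUBA1B at 0.33, VPREB1 at 0.32, the tubulin TUBB at 0.30 and HMGB2 at 0.28, then STMN1, the histone H2AFZ, HMGN2, the topoisomerase TOP2A and UBE2C. The 9 of these genes other than VPREB1 had log2 ratios from -0.23 (TUBA1B) to 0.07 (TOP2A). VPREB1 was nearest to IGLL1, VPREB3 (0.31) and CD79A (0.27), and then to MZB1 (0.24), a chaperone of immunoglobulin assembly, and PTTG1 (0.22). VPREB3 and CD79A were nearest to each other (0.31), and CYBA, a subunit of the phagocyte oxidase, was among the 5 nearest of both. CD79B had other neighbours: CD9 (0.27), NSMCE1 (0.19), COL9A3 (0.19), HLA-DRA (0.17) and TCL1A (0.16).

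Of the list for pre-B cell receptor signalling, also chosen with earlier results of these data known, 18 genes were measured. Of these, 3 were at least 1.5-fold lower with ETV6-RUNX1 and 0 higher, beside 0.655% and 0.185% of all measured genes. One of the 3, CD72, passed 10 CPM in the control alone, so its place in that count follows from where it was high. They were LAT2, a membrane adaptor, at 16.0 CPM with ETV6-RUNX1 against 55.7 CPM in the control (-1.80), PTPRCAP, a partner of the CD45 phosphatase, at 38.2 CPM with ETV6-RUNX1 against 109 CPM in the control (-1.51), and CD72, an inhibitory B-cell receptor, at 9.22 CPM with ETV6-RUNX1 against 18.4 CPM in the control (-0.998). The list's median log2 ratio was -0.08, against -0.04 over all measured genes. Of the 18, 11 had a log2 ratio under 0, near the 63.8% of all measured genes that did. Kinases and adaptors of the list lay on both sides: SYK at 0.11, LYN at 0.22, BTK at 0.24 and BLNK at 0.38, but BLK at -0.25 and VAV1 at -0.48, with the phosphatase PTPN6 at -0.39. These were named after their values were seen, and VAV1 passed 10 CPM in the control alone. Of 26 measured transcriptional regulators of B-cell precursors, 0 reached 1.5-fold in either direction, and the median was 0.01. That count is near the share over all measured genes, of which 0.655% were that much lower and 0.185% higher. The farthest were ETV6 (0.55), ID3 (-0.54), an inhibitor of E proteins, and IRF4 (0.48), a factor of late pre-B cells. ETV6 passed 10 CPM with ETV6-RUNX1 alone. EBF1, a direct activator of surrogate light chain genes in mouse, was at 86.9 CPM with ETV6-RUNX1 against 87.6 CPM in the control (-0.01). Its partner TCF3 was at 60.8 CPM with ETV6-RUNX1 against 59.7 CPM in the control (0.03), and both were named after their values were seen.

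Of 24 measured genes of light chain assembly and folding in the endoplasmic reticulum, 0 reached 1.5-fold in either direction. That is near the share over all measured genes, of which 0.655% were that much lower and 0.185% higher. Of the 24, 21 had a log2 ratio under 0, where 63.8% of all measured genes did, and the median was -0.08. The farthest were MZB1 at 252 CPM with ETV6-RUNX1 against 348 CPM in the control (-0.46), XBP1, a factor of the secretory program, at 185 CPM with ETV6-RUNX1 against 246 CPM in the control (-0.41), and SEL1L (-0.33), part of the pathway that removes misfolded chains, which passed 10 CPM in the control alone. Of the 9 measured B-cell precursor markers 0 reached 1.5-fold in either direction, again near the share over all measured genes. Their median was 0.06, and RAG1 (0.53), a recombinase of receptor gene rearrangement, BLNK (0.38) and DNTT (0.21), the polymerase that adds bases at the joints, were the farthest.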

How the data were processed

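Each library has 1 deposited matrix of unnormalized UMI counts, genes by cell barcodes. Per the submitters' processing notes, the authors used Cell Ranger 3.0.2 and the hg19 build. GENCODE release 29 gave gene order and type by identifier, and RefSeq promoters are of build GRCh38.p14. The members and gene lists were chosen with earlier results of these data known. UMIs of kept cells were summed and scaled to CPM, 10 CPM being 440 UMIs with ETV6-RUNX1 and 428 in the control. Intervals are exact 95% Poisson or Clopper-Pearson intervals and cover counting error only; PCR copies are removed by UMIs, and the spread between cells and cultures is not in them. With 1 library per group no test was made. Phases were called with scanpy 1.11.5 on thinned cells of both libraries together, with a score cut at 0. Scrublet (expected rate 0.05) called 14 doublets with ETV6-RUNX1 and 16 in the control, which were left in. The ratio, its interval and the ranking of genes by r were tested on simulated data. Beside the members, named genes are those past 1.5-fold and the 3 farthest from 0 in each list, the genes nearest each member by r (10 for IGLL1, 5 for others) and measured neighbours in gene order; others are said to be named after their values were seen. Alternatives changed the scaling, with edgeR 4.0.16 or DESeq2 1.42.0 size factors, and the cell filter, depth, phase weights, CPM minimum and fold size.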

Additional observations from a re-analysis of the deposited data

How the results depend on the processing

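No paired analysis was possible because there was 1 library per construct. Over all settings the log2 ratio of IGLL1 stayed between -0.82 and -0.69 and past 1.5-fold, that of KB-208E9.1 between -1.12 and -0.88, of CD79A between -0.40 and -0.25, and of VPREB3 between -0.12 and -0.055. VPREB1 ranged from -0.69 to -0.52, past 1.5-fold in some settings and short of it in others. With TMM scaling, median-of-ratios scaling or totals without ribosomal protein and mitochondrial genes, IGLL1 was at -0.69, VPREB1 at -0.52, VPREB3 at -0.055, -0.055 and -0.056, and CD79B at 0.065, 0.065 and 0.064. Those 3 scalings gave 18 genes at least 1.5-fold higher, with 32, 32 and 33 lower, against 11 and 39. With cells weighted equally IGLL1 was at -0.77, VPREB1 at -0.61 and CD79A at -0.35, and 18 genes were higher. In thinned cells IGLL1 was at -0.76, VPREB1 at -0.59 and KB-208E9.1 at -1.08. With phases given equal weight IGLL1 was at -0.82, VPREB1 at -0.69, CD79A at -0.40 and KB-208E9.1 at -1.11, and CD79B turned to -0.073. With phases called within each library, an alternative chosen after seeing the data, IGLL1 was at -0.75, VPREB1 at -0.65, CD79A at -0.36 and KB-208E9.1 at -1.12, and CD79B turned to -0.078. Under those calls IGLL1 was at -0.98, -1.01 and -0.47 in G1, S and G2/M, the last short of 1.5-fold. A floor of 1 CPM gave 139 genes higher and 232 lower, a floor of 50 CPM gave 1 and 10, and a size of 2-fold gave 0 and 5. The correlation of IGLL1 and VPREB1 with ETV6-RUNX1 was 0.41 in cells thinned to 5000 UMIs and 0.41 as the mean within phases. The share of cells without IGLL1 ranged from 4.58% to 17.2% with ETV6-RUNX1 and from 0.448% to 2.39% in the control over these depths and filters; the cause of these shifts was not tested.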
